A study of Mus musculus with 16 samples.

Results

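The regions described here are 4155 shorter peaks of the histone mark H3K27me3 that recurred in every condition of a study of mouse splenic B cells. They were chosen by measured overlap and width: a broad peak of the wild-type (WT) DMSO list on chromosomes 1 to 19 was taken when it was shorter than 10000 bp and at least 1 bp of it lay in a peak of each of the 3 other lists. Of the 39495 peaks of that list, 39233 lay on these chromosomes, 37984 of them were below the width bound, and 10.9% of these qualified. Another 1180 peaks of 10000 bp or more were also found in all 4 lists and serve below as a comparison, as do the 33829 shorter peaks missing from at least 1 list.

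B cells were isolated from spleens of C57BL/6 mice aged 6 to 8 weeks by CD43 magnetic bead purification and cultured with the cytokines BAFF and IL-4. The mice were WT or Ifih1/Rigi/cGAS triple mutant, with mutations in genes for cytosolic RNA and DNA sensors, and the kind of mutation is not given in the sources used here. Cells of each genotype received the solvent DMSO or 1 µM GSK343, an inhibitor of the methyltransferase EZH2, for 48 hours, and the 16 samples make up 8 groups of 2, since every combination of genotype and treatment had ChIP and input samples. Each ChIP group is represented by 1 list of peaks, whose names refer to pooled duplicates. The prefix of the mutant peak names ends in 1, which does not tell whether 1 replicate or both were used. Neither read depth nor any replicate of a list was at hand, and all differences between lists are therefore descriptions without a test. Intervals are 95% Wilson intervals. They hold the error of counting peaks, starts or genes and no other. They take neighbouring peaks, and starts of the same gene, as independent.

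H3K27me3 is placed by Polycomb repressive complex 2, whose catalytic subunit is EZH2, and is typically found at silent genes of developmental and tissue-specific programmes. In mammals the complex is recruited mainly to CpG-rich promoters without active transcription and spreads the mark from there into flanking chromatin. An EZH2 inhibitor blocks new methylation, while the mark already present is diluted by cell division and removed by demethylases.

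The promoters of 7 genes are shown because they mark the contrast on which the later sections turn: in 5 the gene start lay in a peak of all 4 lists, and in the other two it lay in a peak of both DMSO lists and of neither GSK343 list. The first 5 were those of highest fold in WT DMSO, where fold is the authors' ratio of ChIP over background for a peak. Fzd7 and Prkd1 were chosen after their values were seen. Each line runs 5′ to 3′ on the gene's own strand, from 250 bases before the start to 50 after it, with each CG dinucleotide in capitals. Sequences are from RefSeq on GRCm38, the build known as mm10.
Epb41l3, chr17:69156494-69156793, plus strand: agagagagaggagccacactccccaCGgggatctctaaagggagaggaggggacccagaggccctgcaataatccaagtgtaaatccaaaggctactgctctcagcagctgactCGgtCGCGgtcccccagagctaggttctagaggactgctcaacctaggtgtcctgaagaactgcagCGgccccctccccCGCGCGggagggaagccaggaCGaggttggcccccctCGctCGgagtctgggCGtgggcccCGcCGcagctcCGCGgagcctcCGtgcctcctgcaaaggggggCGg
Tmem229a, chr6:24956076-24956375, minus strand: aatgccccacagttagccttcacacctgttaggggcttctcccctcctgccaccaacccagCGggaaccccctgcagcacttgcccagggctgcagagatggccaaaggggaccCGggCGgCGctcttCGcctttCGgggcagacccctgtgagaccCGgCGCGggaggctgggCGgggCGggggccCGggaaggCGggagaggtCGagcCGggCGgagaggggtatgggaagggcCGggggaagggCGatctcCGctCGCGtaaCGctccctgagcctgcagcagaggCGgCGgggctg
Gas1, chr13:60177486-60177785, minus strand: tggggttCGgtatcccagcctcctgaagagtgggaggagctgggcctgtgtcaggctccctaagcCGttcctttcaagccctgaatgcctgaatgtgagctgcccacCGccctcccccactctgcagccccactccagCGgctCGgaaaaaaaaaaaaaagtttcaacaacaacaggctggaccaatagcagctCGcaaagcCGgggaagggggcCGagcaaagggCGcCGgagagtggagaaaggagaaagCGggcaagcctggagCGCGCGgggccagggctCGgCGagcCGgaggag
Tpm2, chr4:43523505-43523804, minus strand: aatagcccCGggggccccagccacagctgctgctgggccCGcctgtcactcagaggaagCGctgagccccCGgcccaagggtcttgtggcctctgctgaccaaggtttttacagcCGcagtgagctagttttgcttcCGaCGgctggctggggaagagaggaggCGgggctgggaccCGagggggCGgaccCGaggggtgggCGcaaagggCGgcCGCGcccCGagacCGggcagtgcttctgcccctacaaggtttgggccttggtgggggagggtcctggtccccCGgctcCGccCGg
Rbm46, chr3:82876434-82876733, minus strand: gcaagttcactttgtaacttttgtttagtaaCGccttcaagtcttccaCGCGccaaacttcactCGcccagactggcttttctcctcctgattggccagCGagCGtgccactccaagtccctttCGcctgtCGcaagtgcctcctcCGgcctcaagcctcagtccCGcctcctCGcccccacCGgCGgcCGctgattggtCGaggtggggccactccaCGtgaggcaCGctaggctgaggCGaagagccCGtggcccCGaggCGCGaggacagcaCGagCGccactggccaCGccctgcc
Fzd7, chr1:59481897-59482196, plus strand: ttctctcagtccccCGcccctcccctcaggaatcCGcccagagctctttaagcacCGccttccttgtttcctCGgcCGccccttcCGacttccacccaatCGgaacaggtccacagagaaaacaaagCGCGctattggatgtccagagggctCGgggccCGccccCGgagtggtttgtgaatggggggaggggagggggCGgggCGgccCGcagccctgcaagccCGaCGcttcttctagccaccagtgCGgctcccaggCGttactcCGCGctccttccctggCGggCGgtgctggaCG
Prkd1, chr12:50649200-50649499, minus strand: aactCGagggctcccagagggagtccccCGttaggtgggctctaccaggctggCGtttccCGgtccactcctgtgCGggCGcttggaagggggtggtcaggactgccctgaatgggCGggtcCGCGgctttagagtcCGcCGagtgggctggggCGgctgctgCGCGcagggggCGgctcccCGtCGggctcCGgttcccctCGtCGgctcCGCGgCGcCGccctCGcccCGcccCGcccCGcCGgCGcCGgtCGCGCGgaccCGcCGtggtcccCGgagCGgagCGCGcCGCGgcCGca
The windows of the first 5 held 18, 24, 17, 20 and 25 CG dinucleotides. Those of Fzd7 and Prkd1 held 24 and 43. The printed promoters were picked by fold or after their values were seen, so these numbers do not speak for starts at large.

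The peaks at these genes show how the mark lay in the 4 lists. Epb41l3 encodes a protein that links the membrane to the cytoskeleton. Its peak was 2211 bp wide in WT DMSO (chr17:69155822-69158032), 82.4% of it lay in a WT GSK343 peak, all of it in a mutant DMSO peak and 92.8% in a mutant GSK343 peak. The folds in WT cells were 5.58 under DMSO and 3.28 under GSK343, and in mutant cells 4.17 and 2.93. At Tmem229a, which encodes a membrane protein, the peak of 3035 bp (chr6:24954423-24957457) kept 41.9% of its bases in WT GSK343 and 40.6% in mutant GSK343. The folds there were 5.35, 4.23, 5.78 and 4.02 in the same order. Gas1 encodes a co-receptor for hedgehog ligands, and its peak of 5208 bp (chr13:60173838-60179045) kept 49.7% and 59.4% of its bases under GSK343. At Tpm2, a tropomyosin gene of muscle, 82.3% and 77.3% of 4498 bp (chr4:43521261-43525758) remained covered. At Rbm46, which encodes an RNA-binding protein of germ cells, the shares were 43.8% and 26.0% of 3414 bp (chr3:82874496-82877909). All 5 peaks lay wholly inside a wider mutant DMSO peak. The 5 were picked for a high WT DMSO fold, so lower folds in other lists can follow from that choice. Across all 4155 regions the median fold was 3.44 under DMSO in WT cells. For the overlapping peak of highest fold it was 3.17 in WT GSK343, while mutant cells had 3.68 under DMSO and 3.05 under GSK343. Over every peak on chromosomes 1 to 19 the medians were higher under GSK343, in lists with far fewer peaks. In WT cells they were 2.96 over 11854 GSK343 peaks against 2.48 over 39233 DMSO peaks. In mutant cells they were 2.92 over 10705 against 2.34 over 48321. The lists hold different sets of peaks, so these medians do not compare the same places.

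At the contrast genes the peak was found in each list but the GSK343 peaks lay beside the start. Fzd7 encodes a Wnt receptor. Its peak of 6008 bp (chr1:59479665-59485672) had 44.7% of its bases in a WT GSK343 peak of 2685 bp, with a fold of 3.63 against 4.68 under DMSO. The mutant GSK343 peak there was 2656 bp wide, with a fold of 3.07. Prkd1 encodes a protein kinase. Its peak of 2837 bp (chr12:50647713-50650549) had 39.9% of its bases in WT GSK343 peaks and 16.6% in mutant GSK343 peaks.

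At the shared shorter peaks the called peaks were narrower in both GSK343 lists and wider in mutant DMSO. Read depth is unknown, so a shorter peak cannot be told apart from one whose flanks fell below the caller's threshold. The rule asked for an overlap of 1 bp and capped the width in WT DMSO alone, so the comparison of widths with mutant DMSO is one-sided by construction. How much of each region was covered is described here, without a test because it comes from the same lists. The median width was 4883 bp in WT DMSO, with a range of 292 to 9994 bp. The widest overlapping peak in mutant DMSO had a median width of 6970 bp. Under GSK343 the median was 1678 bp in WT and 1352 bp in mutant cells. Of the bases of all 4155 regions, 40.3% lay in WT GSK343 peaks, 97.2% in mutant DMSO peaks and 34.7% in mutant GSK343 peaks. The wide peaks of all 4 lists had 47.3%, 98.8% and 40.1% in the same order. Of all 37984 shorter WT DMSO peaks, 78.8% were overlapped in mutant DMSO, 17.1% in WT GSK343 and 13.9% in mutant GSK343, which are the shares the rule drew on and support nothing by themselves.

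**Figure D1:**
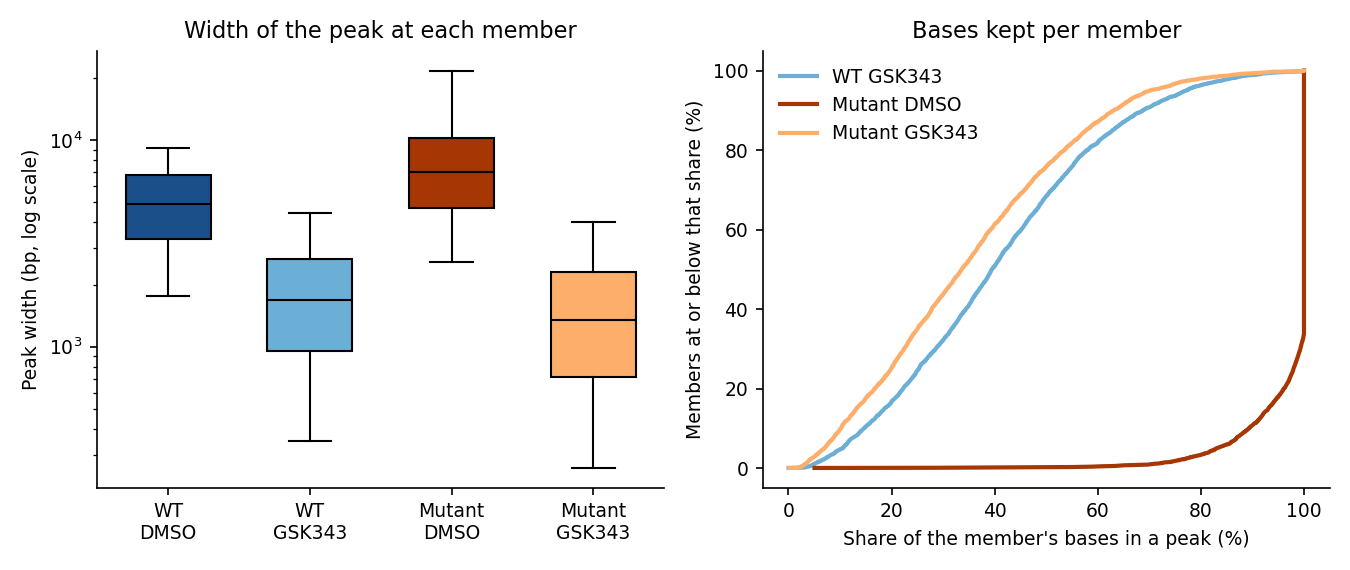
Left, width in bp on a log scale of the WT DMSO peak and of the widest overlapping peak in each other list, for the 4155 shared shorter peaks; boxes span the quartiles with the median as a line, and whiskers run from the 5th to the 95th percentile. Right, cumulative share of regions (%) by the share of their bases (%) in a peak of each other list; both GSK343 curves rise across the whole range, with medians of 39.5% and 33.6%, while the mutant DMSO curve stays near 100%.

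The regions differed widely in what remained under GSK343. At least 50% of the bases lay in WT GSK343 peaks at 1312 regions, or 31.6% (30.2 to 33.0%), and in mutant GSK343 peaks at 1005 regions, or 24.2% (22.9 to 25.5%). Under 10% remained at 192 regions in WT and at 400 in mutant cells. A single GSK343 peak lay in 81.1% of the regions in WT and in 78.2% in mutant cells, and the rest held several. The share was larger in WT than in mutant GSK343 at 2565 regions and smaller at 1588, with a median difference of 4.37 percentage points. Depth is unknown, so a difference of that size cannot be told apart from a difference in depth or calling between the lists.

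Among regions of at least 2000 bp, those that kept most were at Ccdc8, Ppp1r3g, Cilp2, Ntn3 with its neighbour Tbc1d24, and Inhbb. Ppp1r3g encodes a subunit that directs a phosphatase to glycogen, Ntn3 an axon guidance ligand and Inhbb a subunit of activins and inhibins. At Ccdc8, 91.5% of 3663 bp lay in a WT GSK343 peak and 92.8% in a mutant one, and at Inhbb 86.9% and 85.7% of 7956 bp. The 5 regions that kept least in either GSK343 list included 1 at Ripor3 and 1 at Nos1, which encodes the neuronal nitric oxide synthase. The others met no protein-coding or lncRNA gene. At Nos1, 1.94% of 3767 bp remained in mutant GSK343 against 34.6% in WT GSK343, and at Ripor3 1.79% of 2574 bp against 23.5%. The widest regions below the bound lay at B4galnt3 (9980 bp), Gm13420 (9992 bp) and Kcnj5 (9994 bp). Next above it were a region without a protein-coding or lncRNA gene (10002 bp), Farp1 (10004 bp) and Rab37 (10006 bp).

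The placement of the GSK343 bases within a region was then described, which the rule had required in each list. A base common to both GSK343 lists was found in 3873 regions, or 93.2% (92.4 to 93.9%). Of the bases covered in mutant GSK343, 75.1% were also covered in WT GSK343, and 64.7% of those in WT GSK343 were covered in the mutant list. The covered bases centred between 40% and 60% of the way along the region in 2038 regions in WT and 2020 in mutant cells. Only bases inside a region were counted, so the larger the share covered, the less far from the middle their centre can lie. Several peaks in a region also average towards its middle. No baseline was computed, so these counts do not show a preference for the middle. Overlap between the GSK343 lists beyond what coverage and placement would give was not tested. In mutant DMSO, 3675 regions lay at a peak wider than the WT DMSO peak and 1086 at a peak of 10000 bp or more. The rule capped the WT DMSO width and left the mutant width free, so this count is one-sided by construction. Peaks also ran wider in mutant DMSO elsewhere, with medians of 19907 against 14242 bp for the wide peaks of all 4 lists and 1140 against 936 bp for all peaks on these chromosomes. Some regions shared such a peak: 247 were in a mutant DMSO peak with another of the 4155.

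Gene starts were far more frequent in the shared shorter peaks than in other peaks of like width. Gene positions played no part in the rule. Starts came from a RefSeq promoter table that lists 16457 of 20665 protein-coding genes and none on chromosome 18, which was left out here. A start lay in 1851 of 4018 regions, or 46.1% (44.5 to 47.6%), in 2.63% (2.46 to 2.81%) of the shorter peaks missing from a list and in 54.9% (52.1 to 57.8%) of the wide peaks of all 4 lists. Over all WT DMSO peaks the share was 8.83%. From 5000 bp to the bound it was 51.8% (49.6 to 54.0%) in the shared peaks against 9.18% (7.28 to 11.5%) in those missing from a list. From 2000 to under 5000 bp it was 43.0% against 6.33%, from 1000 to under 2000 bp 28.5% against 3.58%, and below 1000 bp 10.8% (4.29 to 24.7%, 37 regions) against 1.16%. The intervals of the 2 kinds did not overlap in any width class.

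**Figure D2:**
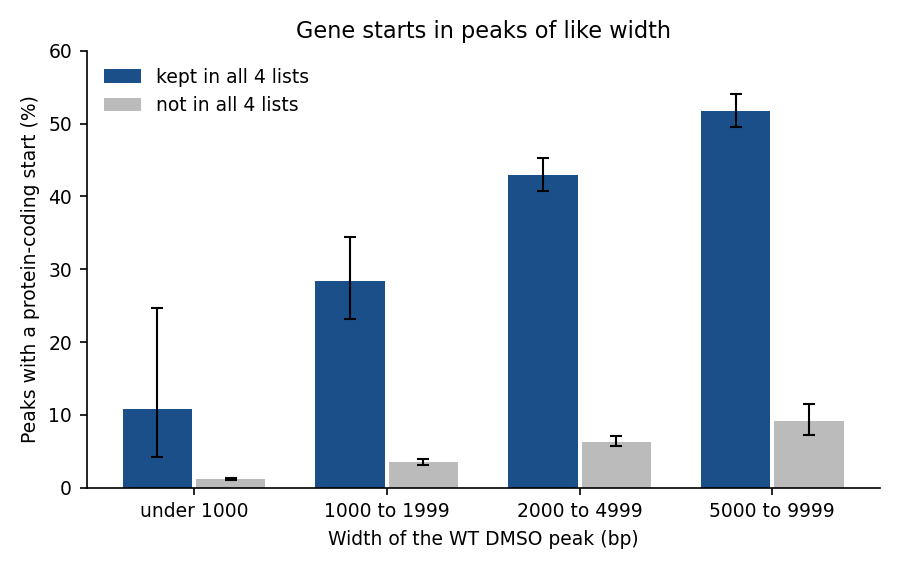
Share of WT DMSO peaks (%) that hold a listed protein-coding start, by peak width in bp, for peaks kept in all 4 lists and for shorter peaks missing from at least 1 list; bars are shares and whiskers 95% Wilson intervals. The kept peaks stand higher in each width class, at 51.8% against 9.18% in the widest.

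Fold moved with the same contrast. The median fold in WT DMSO was 3.44 in the shared shorter peaks and 2.45 in the shorter peaks missing from a list. Shared peaks made up 0.178% of shorter peaks with a fold below 2.5 and 98.0% of those at 4 or more. Within a fold of 2.5 to 3 the share with a start was 20.7% (18.2 to 23.5%) of 882 shared peaks against 3.92% (3.59 to 4.28%) of 12058 others, and within 3 to 3.5 it was 42.4% (39.7 to 45.2%) of 1257 against 19.6% (16.7 to 22.9%) of 642. At a fold of 4 or more the intervals overlapped, at 65.0% (61.3 to 68.6%) of 646 and 38.5% (17.7 to 64.5%) of 13. Median widths still differed inside a fold class, at 4765 against 1425 bp for 3 to 3.5.

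The kinds of place were then set side by side. Besides the 1851 regions with a listed start, 1332 lay in a protein-coding gene body without a listed start, 243 met a lncRNA gene only, 69 another kind of gene only and 523 no gene. Regions with a start had a median of 43.1% of bases in WT GSK343 peaks and 37.8% in mutant GSK343 peaks. Regions without a gene had 30.1% and 22.4%, and lncRNA regions 32.9% and 27.2%. Regions with a start also had the highest median fold in WT DMSO, 3.64 against 2.99 in those without a gene.

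Under GSK343 the start itself was covered more often than an average base of the same region, and so was the region's midpoint. Over the 1582 regions with 1 listed start, 83.2% of starts (81.3 to 85.0%) lay in a WT GSK343 peak and 79.0% (76.9 to 80.9%) in a mutant GSK343 peak, while 43.3% and 38.1% of the bases of the same regions did. At 2000 bp before the start, coverage in WT cells was 55.5% under DMSO and 10.9% under GSK343, and in mutant cells 70.4% and 9.04%. At 2000 bp inside the gene the values were 74.7% and 25.3% in WT and 85.5% and 21.0% in mutant cells. Coverage in both GSK343 lists was highest 200 bp inside the gene, at 87.3% and 84.7%. Starts lie near the middle of many regions. The midpoints of the same 1582 regions were covered in 75.2% in WT GSK343 and in 70.5% in mutant GSK343. Where the start lay in the outer 25% at either end (319 regions), 59.9% of starts (54.4 to 65.1%) were in a WT GSK343 peak. The midpoints of these regions were covered in 54.5% (49.1 to 59.9%). In mutant GSK343 the shares were 55.2% of starts and 48.6% of midpoints. Start and midpoint belong to the same region, so overlap of their intervals does not tell whether they differ. No paired comparison was run. Where the start lay nearer the middle (1263 regions), 89.2% of starts and 80.4% of midpoints were covered in WT GSK343. In mutant GSK343 these were 85.0% and 76.1%. In regions outside protein-coding genes 53.6% of midpoints were covered in WT GSK343 and 43.8% in mutant GSK343.

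**Figure D3:**
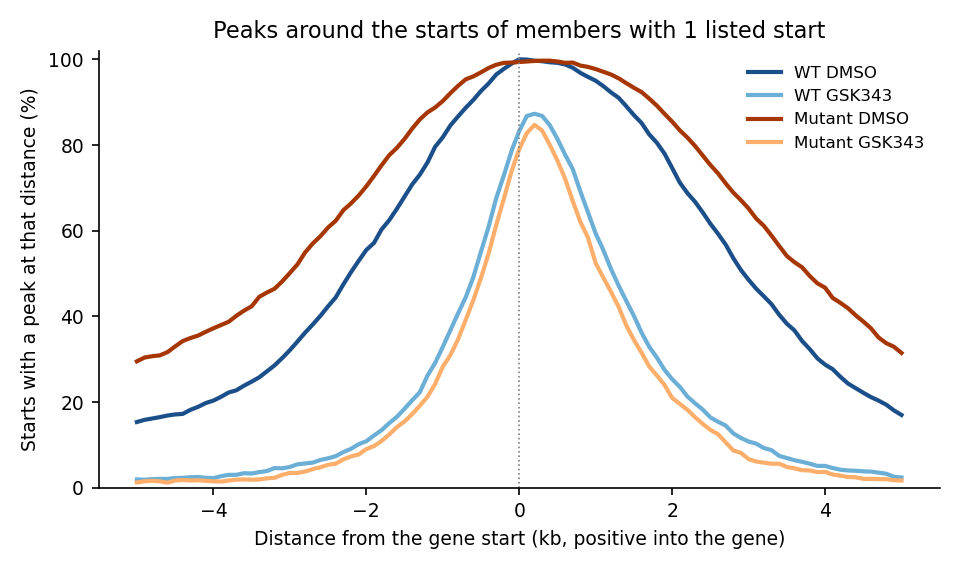
Share of 1582 starts (%) with a peak at each distance from the start in kb, with positive distances inside the gene, for the 4 lists. Both GSK343 curves form a narrow crest just inside the gene, at 87.3% in WT and 84.7% in mutant cells. The mutant DMSO curve is broader than that of WT DMSO, the only list whose peak widths the rule capped.

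Counting every listed start, 2195 starts of 1871 genes lay in these regions, which is 11.4% of the 16457 genes with a listed start. Of these starts 1794 were in a WT GSK343 peak, 2178 in a mutant DMSO peak and 1709 in a mutant GSK343 peak. All 4 lists covered 1543 starts, or 70.3% (68.4 to 72.2%), and 235 starts, or 10.7%, were in neither GSK343 list, like those of Fzd7 and Prkd1 shown above. WT GSK343 alone of the GSK343 lists covered 251 starts and mutant GSK343 alone 166.

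The promoters were CpG-rich more often than promoters at large. The CpG ratio compares the number of CG dinucleotides with the number that the C and G content of the window would give, and a window is called CpG-rich here at a ratio of at least 0.6 and a G+C content of at least 50%. By this measure 57.4% (55.4 to 59.5%) of the 2195 starts were CpG-rich, against 46.5% of all 20085 listed starts, 27.9% (25.1 to 30.8%) of those in shorter peaks missing from a list, 61.4% (58.1 to 64.6%) of those in wide peaks of all 4 lists and 45.3% of those without a WT DMSO peak. The median CpG ratio was 0.665 in the shared shorter peaks, 0.395 in the shorter peaks missing from a list and 0.701 in the wide ones. Starts without a peak had a median of 0.566 with a wider spread, from a lower quartile of 0.206 to an upper quartile of 0.841, where the shared shorter peaks ran from 0.466 to 0.833. The lower quartiles differed more than the upper ones.

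**Figure D4:**
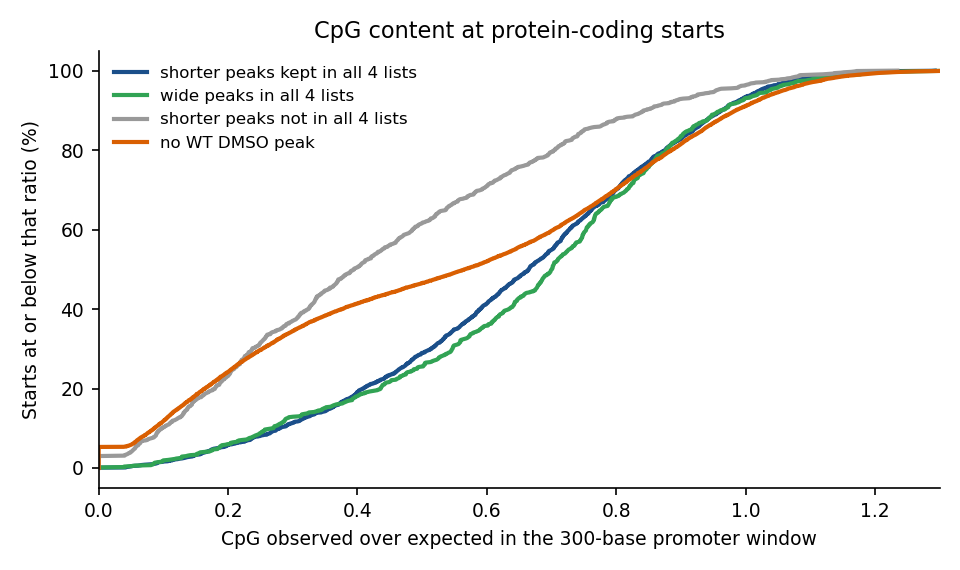
Cumulative share of protein-coding starts (%) by the CpG ratio of the 300-base promoter window, for starts in the shared shorter peaks, in wide peaks of all 4 lists, in shorter peaks missing from a list and outside WT DMSO peaks. The shared shorter and the wide peaks run close together with medians of 0.665 and 0.701, and the shorter peaks missing from a list lie at lower ratios with a median of 0.395.

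CpG content also went with the mark left at the start. When the 2195 starts were ordered by CpG ratio and divided into 4 groups, both GSK343 lists covered 53.9% (49.7 to 58.0%) of the starts of lowest ratio, then 74.5%, 78.8% and 73.9% (70.1 to 77.4%) of the following groups. The lowest group stood apart from the others, and the upper groups had overlapping intervals. The 2195 starts belong to 1871 genes, and starts of 1 gene can share a region, so these intervals are likely too narrow. Fold and width of the regions were not compared between the groups. In mutant DMSO all groups lay between 98.5% and 99.8%. The letters GGGCGG, the core of the GC box bound by Sp factors, were found on either strand in 64.7% (62.7 to 66.7%) of the windows against 47.0% of all promoters, and contain a CG themselves. Their share was 64.2% in wide peaks of all 4 lists and 41.1% in shorter peaks missing from a list. TATAAA, the core of the TATA box, was found in 7.38% (6.36 to 8.55%) against 12.7%. For TATAAA the wide peaks of all 4 lists had 8.36% and the shorter peaks missing from a list 10.4%. Median G+C content was 64% in the windows of the shared shorter peaks and 57% in all promoters. Motif shares at like G+C content were not compared. The E-box CACGTG was found in 7.52% (6.49 to 8.70%) against 7.89%, and the interval held the value for all promoters. A match says that the letters occur in the window, not that a factor binds there.

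The genes touched by these regions were then read by family. A gene was counted when its body met a shared shorter peak, which held for 3171 of 20665 protein-coding genes, or 15.3%. A longer gene offers more bases to be met. The median gene length was 17.5 kb over all genes, and lengths and listed starts are given beside the counts of signalling, nervous system, adhesion and matrix genes. Where 2 percentages of a peak's bases follow a gene, the first is for WT GSK343 and the second for mutant GSK343. The 27 lists were chosen by symbol with earlier results of these data known.

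Signalling genes were among the families met most often. Of 56 genes for Wnt ligands, receptors and antagonists, 36 met a shared shorter peak and 20 a wide peak of all 4 lists, and 19 of 36 listed starts, or 52.8%, lay in a shared shorter peak against 11.4% of all genes. Their median length was 28.8 kb. Wnt ligands instruct cell fate and growth through Frizzled receptors, and the genes met included the ligands Wnt5a and Wnt3a, the receptors Fzd1, Fzd6 and Fzd7, and the antagonists Dkk1 and Sfrp1. At Fzd6, 75.2% and 27.7% of 3166 bp remained. Of 57 genes of TGF-beta and BMP signalling 30 were met, and 11 met a wide peak, with 16 of 38 listed starts and a median length of 16.8 kb. Bmp2, a ligand that drives bone and heart formation, kept 62.0% and 47.7% of 6791 bp. FGF ligands and receptors were met in 12 of 25, with 10 of 19 listed starts and a median length of 15.3 kb. Those of highest fold were Fgfr2 (51.2% and 80.7% of 5245 bp) and Fgf12 (42.0% and 41.3% of 5376 bp). Hedgehog and Notch genes were met in 15 of 28, with 11 of 23 listed starts and a median length of 21.0 kb. Among them were Gas1 and the Notch ligand Jag1, which kept 55.1% and 48.8% of 7021 bp.

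Genes of the nervous system were met often as well. Axon guidance genes, which encode ligands and receptors that steer growing nerve fibres, were met in 43 of 69, and 34 of 59 listed starts lay in a shared shorter peak, or 57.6%. Their median length was 69.0 kb. Epha7, an ephrin receptor, kept 51.0% and 47.3% of 6333 bp. Potassium channel genes were met in 48 of 92, with 29 of 68 listed starts and a median length of 34.5 kb, and with Kcnma1 and Kcnn1 of highest fold, at 5.08 and 4.79. Receptors for monoamines, opioids and peptides were met in 37 of 65, although their median length was 11.9 kb, and 24 of 47 listed starts lay in a shared shorter peak. Galr3, a galanin receptor, kept 60.7% and 67.2% of 7024 bp, and Oxtr, the oxytocin receptor, 37.3% and 43.2% of 4831 bp. Sodium and calcium channel genes were met in 19 of 39, with 12 of 29 listed starts and a median length of 110 kb. Receptors for glutamate, GABA, glycine and acetylcholine were met in 31 of 67, with 18 of 47 listed starts and a median length of 70.1 kb. Grin3a, a glutamate receptor subunit, had a peak of 2311 bp with a fold of 5.10, of which 61.3% and 55.6% remained.

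Adhesion and matrix genes were met in part. Cadherin genes outside the protocadherin clusters were met in 21 of 42, with Cdh4 (57.4% and 67.8% of 3513 bp) and Cdh2 of highest fold. Their median length was 121 kb, and 8 of 28 listed starts lay in a shared shorter peak. Collagen genes were met in 16 of 42 with 15 of 33 listed starts and a median length of 110 kb. ADAM and ADAMTS protease genes were met in 21 of 58, with 12 of 32 listed starts and a median length of 36.8 kb, and 1 of the 58 met a wide peak of all 4 lists.

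Homeodomain and other developmental factors were met by wide peaks more often than by shared shorter peaks. Of all protein-coding genes, 5.66% met a wide peak of all 4 lists and 15.3% a shared shorter peak. Of 39 Hox genes 37 met a wide peak and 3 a shared shorter peak: Hoxa3, Hoxa4 and Hoxd1. The Hoxd1 peak of 8333 bp lay inside a mutant DMSO peak of 148023 bp. Other homeobox genes were met by a wide peak in 99 of 139 and by a shared shorter peak in 30, T-box genes in 12 and 1 of 18, Pax genes in 7 and 2 of 9, and forkhead genes in 22 and 4 of 41. The width bound of the rule shapes this division, and a region near the bound could fall on either side. Sox genes were met by a wide peak in 9 of 18 and by a shared shorter peak in 7, among them Sox10 and Sox13, and bHLH genes in 28 and 19 of 64. Shared shorter peaks met 38.9% of Sox, 29.7% of bHLH, 22.2% of Pax and 21.6% of other homeobox genes, above the 15.3% of all genes. They met 9.76% of forkhead, 7.69% of Hox and 5.56% of T-box genes, below it. The intervals of Pax, forkhead, Hox and T-box genes hold 15.3%.

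**Figure D5:**
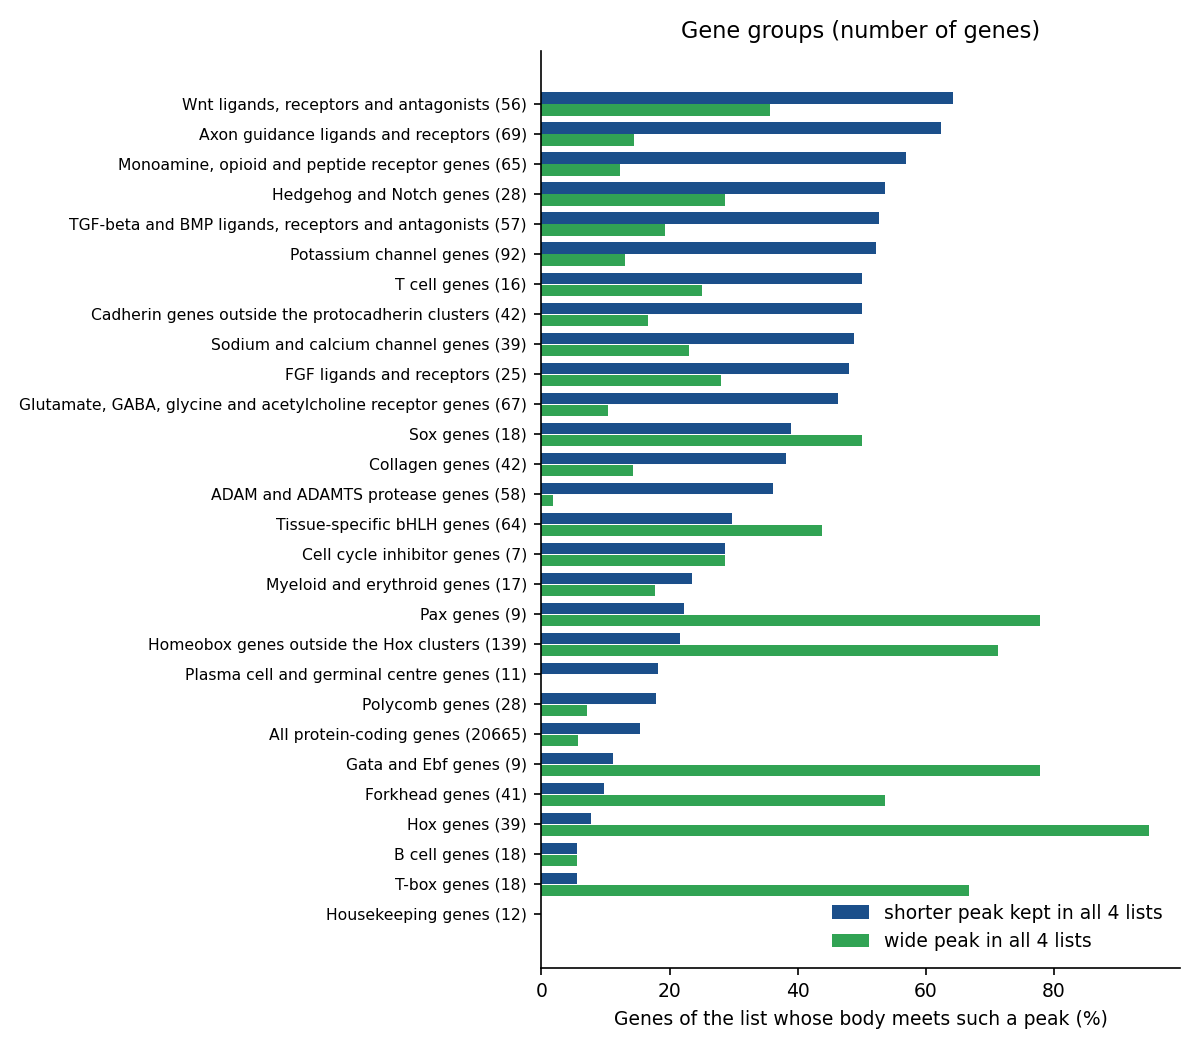
Share of the genes of each list (%) whose body meets a shared shorter peak or a wide peak of all 4 lists, with the number of genes in parentheses. Signalling, axon guidance and channel genes have longer bars for shorter peaks (64.3% of Wnt genes), and Hox, Pax, T-box and other homeobox genes for wide peaks (94.9% of Hox genes), against 15.3% and 5.66% of all protein-coding genes.

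Blood cell genes were checked against the labelled cell type. Of all protein-coding genes, 32.6% met a WT DMSO peak of any kind and 15.3% a shared shorter peak. Of 18 B cell genes 17 met no WT DMSO peak, and the exception, Pou2f2, met both a shared shorter peak of 9320 bp and a wide one. Of 16 T cell genes 12 met a WT DMSO peak and 8 a shared shorter peak, among them Bcl11b, Lef1 and Tcf7. Tcf7, which encodes a T cell transcription factor, kept 70.3% and 64.6% of 4078 bp, and Bcl11b, a factor that commits cells to the T lineage, 31.1% and 48.2% of 6827 bp. Of 17 myeloid and erythroid genes 10, or 58.8%, met a WT DMSO peak of any kind and 3 a wide peak of all 4 lists. A shared shorter peak met 4, or 23.5% (9.56 to 47.3%), an interval that holds the 15.3% of all genes: Cebpa, Csf3r, Epor and Hba-a1. Cebpa, a factor of myeloid fate, kept 78.4% and 74.5% of 7227 bp, and the globin gene Hba-a1 3.30% and 13.9% of 8189 bp. Of 11 plasma cell and germinal centre genes 4 met a WT DMSO peak of any kind. A shared shorter peak met 2, or 18.2% (5.14 to 47.7%), near the share of all genes. Prdm1, the factor that drives plasma cell formation, kept 43.1% and 31.03% of 6642 bp, and S1pr2, a receptor that holds cells in germinal centres, 39.3% and 17.4% of 2067 bp. Of 7 cell cycle inhibitor genes 4 met a WT DMSO peak of any kind. A shared shorter peak met 2 (8.22 to 64.1%), which also spans the share of all genes: Cdkn1c (35.5% and 27.9% of 6304 bp) and Cdkn1a (64.2% and 54.9% of 832 bp). Listed starts lay in a shared shorter peak for 3 of 12 T cell genes and 4 of 13 myeloid and erythroid genes. This held for 0 of 12 B cell, 0 of 9 plasma cell and germinal centre and 0 of 6 cell cycle inhibitor genes. Over all genes with a listed start it was 11.4%. The regions at Pou2f2, Bcl11b, Prdm1, S1pr2, Cdkn1c and Cdkn1a held no listed start. None of 12 housekeeping genes met a WT DMSO peak. Of the genes named in the labels, Ifih1 and Ddx58, the gene for RIG-I, met no WT DMSO peak, nor did Ezh2, and Cgas met a wide peak of all 4 lists.

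MicroRNA hairpins were present as well. Of 919 hairpins 36, or 3.92% (2.84 to 5.38%), began in 31 of these regions. Of protein-coding genes with a listed start, 11.4% had it in such a region. These 2 shares are of unlike positions, since the hairpin itself was placed and not the start of its transcript. Another 40 hairpins began in wide peaks of all 4 lists and 24 in shorter peaks missing from a list. The sequences of 7 mature forms are shown because they include pairs that share a seed, the stretch of bases 2 to 8 that pairs with target RNAs, given in capitals, and because their regions differ in what remained under GSK343. They are from RefSeq and were chosen after their regions were seen.
mmu-miR-125a-5p: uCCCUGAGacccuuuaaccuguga
mmu-miR-125b-5p: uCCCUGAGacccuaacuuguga
mmu-miR-34b-3p: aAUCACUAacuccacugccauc
mmu-miR-34c-3p: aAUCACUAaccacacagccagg
mmu-miR-137-3p: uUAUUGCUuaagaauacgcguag
mmu-miR-148a-3p: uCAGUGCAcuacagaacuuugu
mmu-miR-203-3p: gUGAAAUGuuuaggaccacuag
The miR-125 forms share the seed CCCUGAG but lie on different chromosomes. The region of Mir125a, which also holds Mirlet7e, was 9202 bp wide (chr17:17822972-17832173), with 45.0% of its bases in WT GSK343 and 33.7% in mutant GSK343. The region of Mir125b-1 was 5164 bp wide (chr9:41578060-41583223), with 4.55% and 3.62%. Neither hairpin lay in a GSK343 peak. The miR-34 forms share the seed AUCACUA and 1 region of 9972 bp (chr9:51099125-51109096), of which 49.3% lay in WT GSK343 and 25.2% in mutant GSK343. The Mir34b hairpin was covered in both GSK343 lists and the Mir34c hairpin in WT alone. At Mir137 (chr3:118433553-118435153) 6.68% and 11.7% remained, at Mir148a (chr6:51269524-51272368) 9.38% and 12.4%, and at Mir203 (chr12:112130332-112138166) 45.6% and 35.3%.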

How the data were processed

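The authors' deposited data were 4 lists of broad peaks, 1 per genotype and treatment, with peaks in blacklisted regions removed, per the file names. The submitters' processing notes name Bowtie2 2.4.2, SAMtools 1.12, MACS2 2.2.7.1, bedtools 2.29.2, deepTools 3.5.1 and mm10, without roles or settings. The deposited fold of a peak is a linear ratio over background, and its p-value and q-value are deposited as −log10; the smallest −log10 q-value lay between 1.03 and 1.08. The deposited display score was not used. The authors' peak positions were intersected in Python 3.11.15 with numpy 2.4.6, pandas 2.3.3 and scipy 1.17.1; bedtools 2.31.1 gave the same 4155 regions, and 6 of 6 quantities were recovered on simulated lists. Figures used matplotlib 3.10.9. Genes and promoters were from RefSeq on GRCm38. No comparison has a test, since each group has 1 list. Base composition and repeat content of the regions were not analysed here. Named genes followed a rule: highest fold, extremes of the share kept, neighbours of the width bound, the first 2 by fold per list, and every gene met in the blood cell and cell cycle lists, of which some are not reported here. The regions, lists and rule were chosen with earlier results of these data known.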

Additional observations from a re-analysis of the deposited data

How the results depend on the processing

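Under 9 planned settings and 1 chosen after seeing the data, 58 values of 7 results were recomputed; 18 stayed and 40 moved. A count stayed within 1.5 times, and a share within the Wilson interval over its regions or starts; shares of bases were read with the number of regions as n, since bases of a region are not independent. Stricter peaks gave fewer regions, more often at starts. The 7 results, in the order number of regions, share with a start, share of bases in WT GSK343, in mutant GSK343 and in mutant DMSO, protein-coding genes met, and CpG-rich starts, became the following where they moved. With a q-value of at most 0.01 they were 2131, 58.6%, 44.1%, 39.5%, 1971 genes and 61.2%. Where −log10 p-values reached 5 or more they were 1736, 60.5%, 44.4%, 40.2%, 1661 genes and 63.1%. With a fold of at least 3 they were 1886, 60.3%, 45.0%, 40.1%, 1790 genes and 62.3%. With at least 50% of the region covered by each other list they were 613, 53.7%, 66.4%, 63.5%, 98.7%, 605 genes and 61.1%; here the setting itself raises the shares of bases. With peaks of at least 1 kb they were 2295, 57.2%, 45.8%, 41.3%, 97.8%, 2065 genes and 61.4%. Below 5000 bp they were 2143 regions, 40.7% with a start, 1651 genes and 54.6% CpG-rich. Merging peaks closer than 3 kb gave 51.6% with a start and 96.0% of bases in mutant DMSO. A bound of 20000 bp moved none. Starts within 1 kb raised the share with a start to 49.0%, and either end of a gene in place of a listed start to 55.6%. The cause of the other changes was not tested. No paired analysis was possible because the lists carry no values per replicate, for which reason leaving out a replicate was not run either. Read depth is unknown, so a shorter or missing GSK343 peak cannot be told apart from one below the caller's threshold.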

Other observations

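Polycomb genes themselves were met by these regions in 5 of 28, or 17.9% (7.88 to 35.6%), near the 15.3% of all protein-coding genes: Bmi1, Cbx2, Cbx8, Kdm6b and Pcgf2. Bmi1, Cbx2, Cbx8 and Pcgf2 encode subunits of Polycomb repressive complex 1, and Kdm6b a demethylase that removes the mark. At Cbx8, 72.5% of 5843 bp lay in a WT GSK343 peak and 64.7% in a mutant one, and at Pcgf2 67.2% and 51.7% of 7210 bp. A listed start lay in such a region for 1 of 23 of these genes, or 4.35%, against 11.4% of all genes.

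The region of highest fold outside protein-coding genes, at Gm34259 on chromosome 17, was 395 bp wide. In WT cells its fold was 9.70 under DMSO and 3.98 under GSK343. In mutant cells it was 8.46 under DMSO and 93.9 under GSK343, where the median over all peaks of that list was 2.92. The value of 93.9 rests on 1 short peak of 1 list of unknown depth and replicate make-up. Repeat content was not analysed, so whether the mark rose there cannot be told. Another short region, 292 bp wide on chromosome 1, met no protein-coding or lncRNA gene. It kept 97.6% of its bases in WT GSK343 and 67.1% in mutant GSK343. Its fold was 4.97 in WT GSK343 against 5.12 in WT DMSO. The shared shorter peaks made up between 8.68% of shorter peaks on chromosome 13 and 13.8% on chromosome 4. The nearest other shared shorter peak lay within 20 kb for 22.2% of them, and a wide peak of all 4 lists for 11.0%. For the shorter peaks missing from a list these shares were 25.2% and 12.4%.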
